A study of Caenorhabditis elegans with 4 samples.

Results

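The genes described here are 9 members of the Wnt system of Caenorhabditis elegans: the Wnt ligand genes egl-20 (W08D2.1), cwn-1 (K10B4.6), cwn-2 (W01B6.1) and mom-2 (F38E1.7), the secreted Frizzled-related gene sfrp-1 (Y73B6BL.21), and the Frizzled receptor genes lin-17 (Y71F9B.5), mig-1 (Y34D9B.1), cfz-2 (F27E11.3) and mom-5 (T23D8.1). They were listed by sequence name, with no cut-off on measured values, out of 17491 gene names in the deposited tables. The list was drawn up with earlier results of these data known. All 9 names carry the expected symbol in the Ensembl annotation. RNA from L2/L3 larvae was sequenced in strain AM11, which carries top-2::degron::GFP together with dpy-27::degron::GFP (TOP-2/DPY-27 depletion), and in strain AM12, which carries top-1::degron::GFP in place of the first (TOP-1/DPY-27 depletion), with 2 libraries each, and the authors compared each strain with the control strain CA1200. All 3 strains had been kept for 2 h on auxin, which destroys degron-tagged proteins where the plant F-box protein TIR1 is made. TOP-2 and TOP-1 are topoisomerases, and DPY-27 belongs to the condensin that lowers expression from the X chromosomes. DPY-27 carried the degron in AM11 and AM12 alike, so no group lacks a topoisomerase alone. The labels give no genotype for CA1200 and name no TIR1 transgene for any strain. No CA1200 library is among the samples of this series, and no stage is labelled for it. A difference of strain, stage, culture or batch between the control and the depleted larvae therefore cannot be told apart from depletion. The words "after depletion" name a group here, not a cause. RNA came from whole larvae, in which fewer cells of a type and less RNA per cell cannot be told apart.

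Wnt proteins are secreted signals that bind Frizzled receptors on other cells. Binding steers the polarity of dividing cells, the migration of neuroblasts and the growth of axons along the body, in part by freeing beta-catenin to act with the TCF factor POP-1. In larvae several Wnt ligands are made towards the tail, whereas secreted Frizzled-related protein, which binds Wnts and blocks them, is made towards the head. LIN-17 and MIG-1 are the receptors through which EGL-20 directs the left Q neuroblast, and MOM-2 and MOM-5 are best known from the endoderm decision of the early embryo.

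The authors' deposited tables give a mean normalized count, a log2 fold change with its standard error (SE) and a test result per gene, without values per library. All 9 genes passed the authors' filter on low counts in both tables, with mean normalized counts between 50.1 (mom-2) and 1696 (egl-20) in the TOP-2/DPY-27 table and between 33.3 and 1480 for the same genes in the TOP-1/DPY-27 table. The level of each group was worked out from that mean and fold change, with 2 control libraries assumed. Under this assumption both tables returned the same control level for each of 9070 genes up to a common factor, with an SD of 0.004 on the log2 scale. The files do not give the reads per library. None of the 9 genes lies on the X, and autosomal genes had median log2 fold changes of -0.13 and -0.14 in the TOP-2 and TOP-1 tables, against 0.54 and 0.68 for X genes.

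Genes of the Wnt system changed in both directions. After TOP-2/DPY-27 depletion, 3 of 9 genes were higher than in the control (sfrp-1, mom-5 and mom-2), 3 were lower (egl-20, lin-17 and cwn-1) and 3 did not pass an adjusted p of 0.05 in the authors' DESeq2 test (cwn-2, mig-1 and cfz-2). Over all genes tested there, 21.5% were called, 14.1% higher and 7.47% lower. After TOP-1/DPY-27 depletion, 3 of 9 were higher (sfrp-1, mom-5 and cwn-2), 3 were lower (egl-20, lin-17 and cwn-1) and 3 did not pass (mom-2, mig-1 and cfz-2), beside 29.9% of all genes called, 17.1% higher and 12.8% lower. The members' median log2 fold change was 0.82 in the first table and 0.35 in the second, against -0.00 and 0.01 over all genes tested. Both comparisons use the same control libraries, so likeness between them is not independent support. Posterior body markers had median log2 fold changes of -2.23 and -2.69 in the same tables, germline markers 4.21 and 3.53 and anterior neuron markers 4.07 and 4.24, and their part in the values of the 9 genes was not tested.

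**Figure D1:**
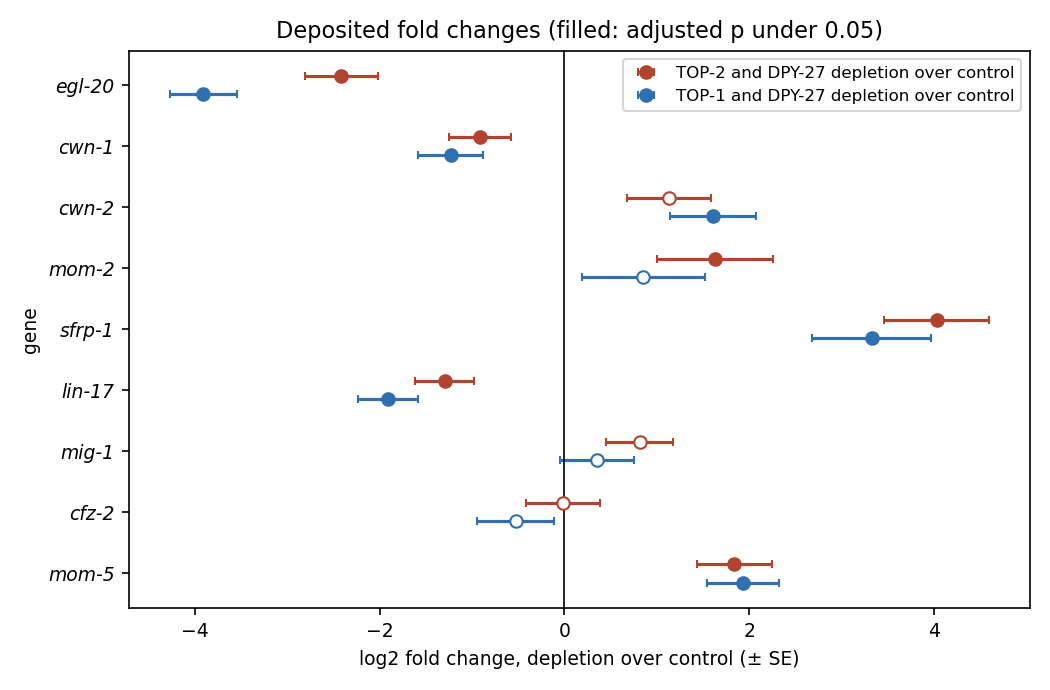
Log2 fold changes of depletion over control (x axis) with their SE for each of the 9 genes (y axis), from the authors' deposited tables, with TOP-2/DPY-27 in red and TOP-1/DPY-27 in blue. Filled points passed an adjusted p of 0.05, with egl-20 at -2.41 and -3.90 at the low end and sfrp-1 at 4.03 and 3.32 at the high end.

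Among the 4 listed ligands, egl-20 had the highest level in the control and the largest fall. EGL-20 is made by cells around the anus and spreads forward, guiding the Q neuroblasts. Its implied level was 537 normalized counts in TOP-2/DPY-27 depleted larvae and 185 in TOP-1/DPY-27 depleted larvae, against 2815 in the control, so that both depletions lay far below the control. In the authors' deposited tables the log2 fold change was -2.41 ± 0.39 (SE, adjusted p 1.98e-08) after TOP-2/DPY-27 depletion, a level 5.32-fold below the control. For TOP-1/DPY-27 the log2 fold change in the authors' deposited table was -3.90 ± 0.36 (adjusted p 4.02e-25), 14.98-fold below the control. Only 31 of 11171 autosomal genes with a mean of at least 10 had a lower fold change in the TOP-1 table, and 213 of 11107 had a lower one in the TOP-2 table.

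The ligand gene cwn-1, which acts with egl-20 in cell migration and is made in posterior muscle among other cells, fell less. Its implied level was 429 normalized counts after TOP-2/DPY-27 depletion and 333 after TOP-1/DPY-27 depletion, against 794 in the control. The authors' deposited tables gave log2 fold changes of -0.91 ± 0.33 (adjusted p 0.0309) and -1.23 ± 0.36 (adjusted p 0.00304). Relative to the autosomal median the first of these was -0.78 and no longer passed the test (adjusted p 0.0737).

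The other two ligand genes were each called higher in one of the comparisons, from low control levels. cwn-2, which helps to place the nerve ring in the head, had implied levels of 116 and 156 normalized counts after the TOP-2 and the TOP-1 depletion, against 52.1 in the control. In the authors' deposited tables its log2 fold change was 1.13 ± 0.45 for TOP-2/DPY-27, just short of the threshold (adjusted p 0.0556), and 1.61 ± 0.46 for TOP-1/DPY-27, which passed (adjusted p 0.00292). With the autosomal median subtracted, the TOP-2 value was 1.26 and passed (adjusted p 0.0283).

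The scarcest of the ligand transcripts was mom-2, which had implied levels of 75.7 and 42.9 normalized counts after the TOP-2 and the TOP-1 depletion, against 24.1 in the control. The authors' deposited tables gave 1.63 ± 0.63 (adjusted p 0.0457) for TOP-2/DPY-27 and 0.86 ± 0.66 (adjusted p 0.355) for TOP-1/DPY-27. The first call was lost when p-values were adjusted over all genes with a p (adjusted p 0.0517), and these SEs are the widest of the 9 genes in each table.

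The secreted antagonist gene sfrp-1 had the largest rise of the 9. Its implied level was 140 normalized counts after TOP-2/DPY-27 depletion and 83.4 after TOP-1/DPY-27 depletion, against 8.46 in the control, where it was the lowest of the 9. The authors' deposited tables gave log2 fold changes of 4.03 ± 0.56 (adjusted p 4.61e-11) and 3.32 ± 0.64 (adjusted p 3.48e-06), that is 16.3-fold and 10.02-fold above the control. Of the autosomal genes, 437 of 11107 lay higher in the TOP-2/DPY-27 comparison and 622 of 11171 in the other.

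Of the receptors, lin-17 fell and mom-5 rose, while mig-1 and cfz-2 did not pass in either table. LIN-17 sets the polarity of cell divisions in the tail and the vulva. Its implied level was 714 normalized counts after TOP-2/DPY-27 depletion and 453 after TOP-1/DPY-27 depletion, against 1726 in the control. In the authors' deposited tables this was -1.30 ± 0.32 (adjusted p 0.000528) and -1.91 ± 0.33 (adjusted p 1.22e-07) on the log2 scale.

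MOM-5 works in embryonic polarity and, in larvae, in the migration of Q neuroblast descendants. Its transcript had implied levels of 487 and 502 normalized counts after the TOP-2 and the TOP-1 depletion, against 134 in the control. With log2 fold changes of 1.84 ± 0.40 (adjusted p 6.85e-05) and 1.93 ± 0.39 (adjusted p 7.95e-06) in the authors' deposited tables, it rose by nearly the same amount in both comparisons.

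For mig-1, expressed in migrating neuroblasts, implied levels were 413 and 290 normalized counts after the TOP-2 and the TOP-1 depletion, against 231 in the control. The authors' deposited tables had it at 0.82 ± 0.36 (adjusted p 0.0975) and 0.35 ± 0.40 (adjusted p 0.553). Once the autosomal median was subtracted the TOP-2 value became 0.94 and passed (adjusted p 0.0457). cfz-2, a receptor in the migration of several neurons, had implied levels of 195 and 132 normalized counts, against 193 in the control, and log2 fold changes of -0.01 ± 0.40 (adjusted p 0.989) and -0.53 ± 0.42 (adjusted p 0.367) in the authors' deposited tables. The 95% interval of its TOP-2 value ran from -0.80 to 0.77.

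In the Ensembl annotation 2 of the 9 genes share exonic bases with a neighbour, each on the opposite strand. cwn-2 shares 50 bases with W01B6.3. That neighbour had log2 fold changes of 1.21 ± 1.00 and 1.19 ± 1.08 in the authors' deposited tables, at mean normalized counts of 11.5 and 11.01. mom-5 shares 66 bases with tsp-7, for which no values were obtained here. The libraries were stranded, but the sources used here do not say whether counting used strand.

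Per exonic kilobase, the spread of levels was wide in the control and narrower after the depletions. In the control egl-20 stood highest at 1394 normalized counts per kb, followed by lin-17 at 783 and cwn-1 at 460, and each of these 3 differed from the next beyond the 95% interval of the gap. Below them came mig-1 at 126, cfz-2 at 93.2, mom-5 at 53.8 and cwn-2 at 36.5, none separable from its neighbour within that group, and, past a further separable step, mom-2 at 15.7 and sfrp-1 at 7.52, which did not differ beyond their spread.

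After TOP-2/DPY-27 depletion the order was lin-17 (324 per kb), egl-20 (266), cwn-1 (248), mig-1 (226), mom-5 (196), sfrp-1 (125), cfz-2 (93.7), cwn-2 (81.5) and mom-2 (49.3), and no gene differed from its neighbour beyond their spread. After TOP-1/DPY-27 depletion lin-17 (206), mom-5 (202), cwn-1 (193) and mig-1 (158) came first, cwn-2 (110), egl-20 (91.8), sfrp-1 (74.1) and cfz-2 (63.7) lay next, and only the step down to mom-2 (27.9) exceeded the 95% interval of the gap. These SEs were solved from the deposited ones, since values per library were not used here.

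**Figure D2:**
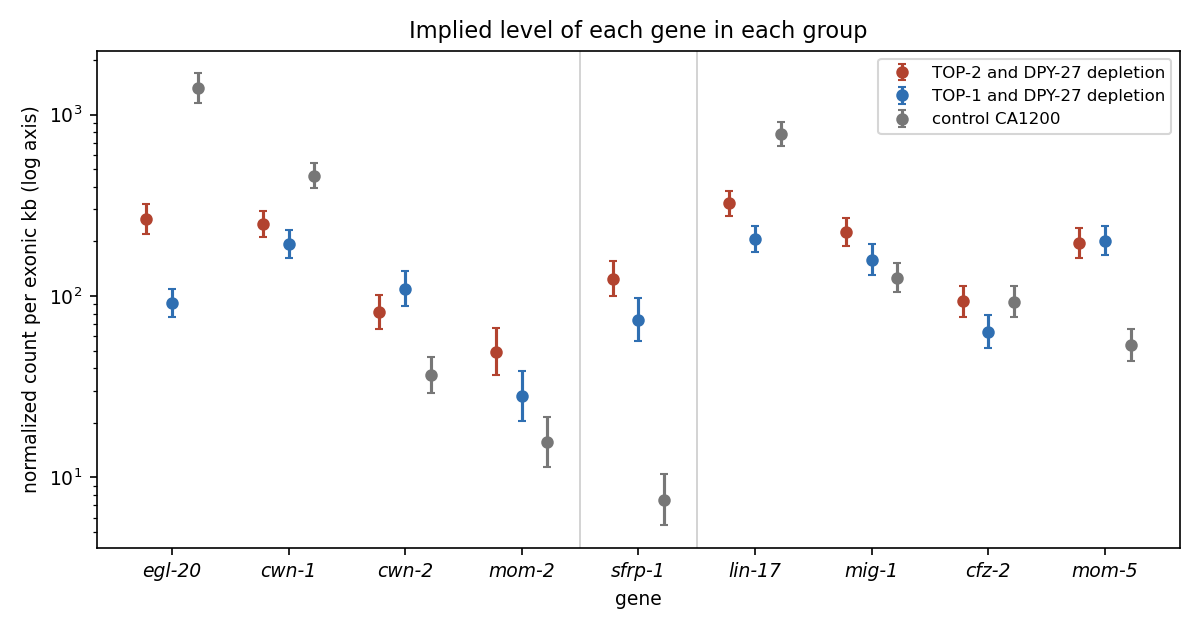
Implied level of each gene (x axis) as normalized counts per exonic kb on a log axis (y axis), with bars of 1 SE, for both depletions and the control. Grey vertical lines part ligands, sfrp-1 and receptors. The control points reach from 7.52 (sfrp-1) to 1394 (egl-20), whereas the points of the TOP-2/DPY-27 depletion lie between 49.3 and 324.

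The make-up of the transcripts of the 4 listed ligand genes and the 4 Frizzled genes followed from these levels. Of the summed level per kb of the 4 ligand genes, egl-20 made up 41.2% after TOP-2/DPY-27 depletion and 21.7% after TOP-1/DPY-27 depletion, against 73.1% in the control. The share of cwn-2 was 12.6% and 25.95%, against 1.92% in the control. The sum itself was 645 and 422 normalized counts per kb, against 1907 in the control. A further Wnt ligand gene, lin-44, is outside this sum, so these are not shares of all Wnt ligand transcripts. Its implied control level was 1362 and 1321 normalized counts, not scaled by length, against 794 for cwn-1. Among the Frizzled genes lin-17 held 38.6% and 32.6% of the summed level, against 74.1% in the control, and mom-5 held 23.4% and 32.1%, against 5.09%. The Frizzled sum was 840 and 630 normalized counts per kb, against 1056 in the control. These shares are descriptions without a test, since each rests on 1 level per group.

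**Figure D3:**
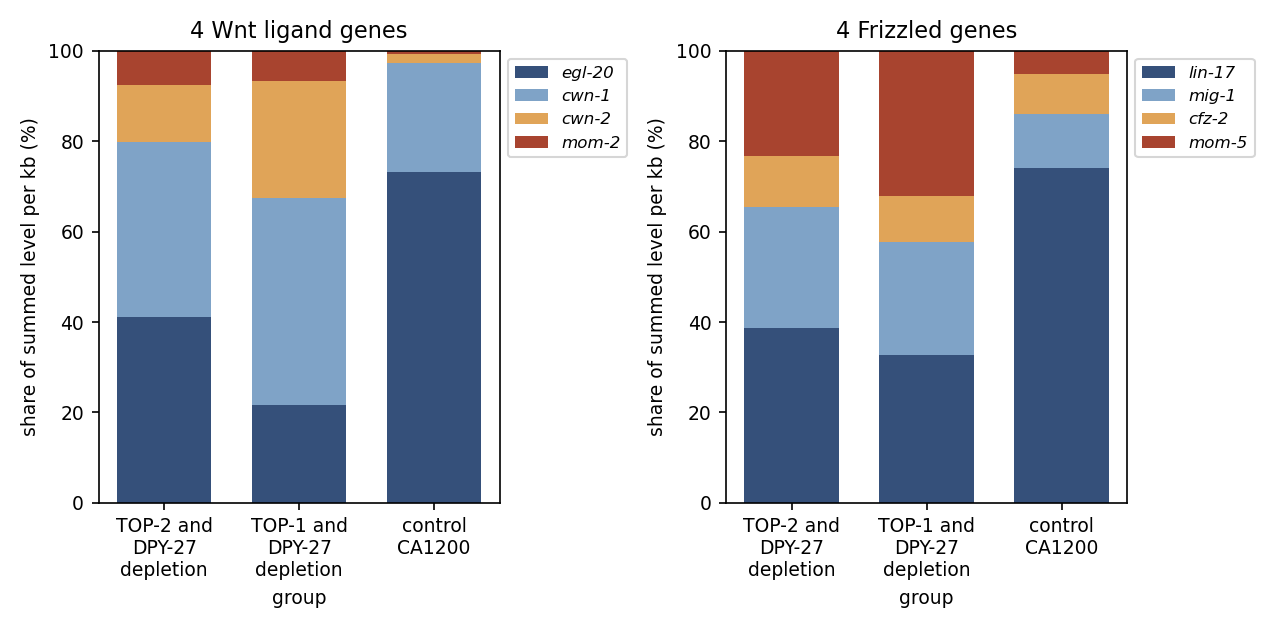
Share (%, y axis) of the summed level per exonic kb that each of 4 Wnt ligand genes (left) and 4 Frizzled genes (right) takes in each group (x axis). The ligand gene lin-44 is not included. The egl-20 block is 41.2% and 21.7% after the depletions and 73.1% in the control, and the lin-17 block 38.6%, 32.6% and 74.1%.

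The depletions were compared with each other through the common control, as the log2 fold change for TOP-2/DPY-27 minus that for TOP-1/DPY-27. With the SEs of the authors' deposited tables taken as independent, which overstates the error because the control is shared, 0 of 9 genes passed a Wald test with Benjamini-Hochberg adjustment over 14646 genes, beside 0.102% of all genes called. At an unadjusted p under 0.05 there was 1 gene, egl-20. The share of all genes under that unadjusted cut was not worked out, so this count has no background beside it. The egl-20 difference was 1.49 ± 0.53 (p 0.00498, adjusted p 0.603), so that the transcript stood 2.82-fold higher in TOP-2 than in TOP-1 depleted larvae. When the error was recomputed without the control's share the SE was 0.38 and the adjusted p 0.00878, and 2.6% of all genes were called. That calculation, chosen after seeing the data, called no other of the 9 genes. The remaining differences ran from -0.48 (cwn-2) to 0.78 (mom-2), with 95% intervals that all included 0. For lin-17 the difference was 0.61, with an interval from -0.29 to 1.51, and for mom-5 it was -0.09, from -1.19 to 1.00.

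Around these genes, 41 further genes of the Wnt pathway were listed by role, of which 40 had an adjusted p in each table. After TOP-2/DPY-27 depletion 4 of 40 were higher, 8 lower and 28 did not pass. That is 30% called, beside 21.5% over all genes tested (14.1% higher and 7.47% lower). The list's median log2 fold change was -0.16, against -0.00 over all genes tested. For TOP-1/DPY-27 the counts were 5 higher, 14 lower and 21 not passing, with a median of -0.31 against 0.01. Here 47.5% were called, beside 29.9% over all genes tested (17.1% higher and 12.8% lower). For the difference between the depletions 0 of these 40 passed the Wald test, 0 had an unadjusted p under 0.05, and 0 passed with the SE freed of the control's share. Again the share of all genes under the unadjusted cut was not worked out.

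The remaining Wnt ligand gene, lin-44, which is made at the tip of the tail, also fell. Its implied level was 230 and 128 normalized counts after the TOP-2 and the TOP-1 depletion, against 1362 and 1321 in the control of each table. The authors' deposited tables gave -2.57 ± 0.35 (adjusted p 1.20e-11) and -3.37 ± 0.38 (adjusted p 3.38e-17) on the log2 scale. Of 8 genes of Wnt processing and secretion, mig-14, the carrier that brings Wnts to the cell surface, fell in both, with -1.84 ± 0.35 and -2.26 ± 0.35 in the authors' deposited tables. The acyltransferase gene mom-1, on the X, and the phosphatase genes mtm-3 and mtm-6, which act in recycling that carrier, passed in the TOP-1 table and not in the other (-1.25 ± 0.50, -0.82 ± 0.32 and -0.92 ± 0.35 in the authors' deposited table). The retromer genes vps-35, vps-26 and vps-29 and the sorting nexin gene snx-3 passed in neither.

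Of 6 other receptors and surface regulators, 3 fell in both tables. These were plr-1, whose product removes Frizzled from the cell surface, at -1.70 ± 0.32 and -2.02 ± 0.32 in the authors' deposited tables, fmi-1, the flamingo cadherin, at -1.60 ± 0.42 and -1.78 ± 0.42, and prkl-1, prickle, at -1.05 ± 0.37 and -1.30 ± 0.38. The Ryk receptor gene lin-18, on the X, was at 0.62 ± 0.35 (adjusted p 0.219) and 1.17 ± 0.34 (adjusted p 0.00387) in the authors' deposited tables. The medians of all X genes were 0.54 and 0.68.

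Inside the cell, none of the 3 Dishevelled genes passed, with list medians of -0.02 and -0.00. Of 6 genes of the beta-catenin destruction complex, the axin gene pry-1 fell, at -1.08 ± 0.36 and -1.76 ± 0.36 in the authors' deposited tables, as did the APC-related gene apr-1, at -0.88 ± 0.34 and -1.01 ± 0.33. The second axin gene, axl-1, rose by 4.79 ± 0.74 and 4.69 ± 0.76 in the authors' deposited tables from an implied control level of only 3.604 and 3.497 normalized counts. The kinase gene gsk-3 was at -0.10 ± 0.35 and -0.99 ± 0.35 in the authors' deposited tables and passed in the second. Of 4 beta-catenin genes bar-1, which serves canonical Wnt signalling and lies on the X, rose, at 1.14 ± 0.33 and 1.03 ± 0.34 in the authors' deposited tables. X genes as a whole had medians of 0.54 and 0.68 there, and a change of bar-1 beyond those medians was not tested. Of 5 genes of TCF and its regulators, the kinase gene lit-1 alone passed, in the TOP-1 comparison, at -0.94 ± 0.35 in the authors' deposited table.

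Genes known as targets of Wnt signalling went apart. The posterior Hox gene egl-5 fell, at -2.23 ± 0.39 and -2.81 ± 0.36 in the authors' deposited tables, whereas mab-5, the Hox gene that EGL-20 turns on in the left Q neuroblast, was at -0.18 ± 0.36 and -0.32 ± 0.36 and did not pass. The mid-body Hox gene lin-39 rose, at 2.16 ± 0.37 and 2.04 ± 0.38 in the authors' deposited tables. Also higher was ceh-22, a homeobox gene that is chiefly pharyngeal, at 4.92 ± 0.79 and 4.88 ± 1.93 (adjusted p 0.0397 for the second) in the authors' deposited tables. Its implied control level was only 4.33 and 4.09 normalized counts. The GATA factor gene egl-18, of the seam, was called lower in the TOP-1 comparison, at -1.001 ± 0.37 in the authors' deposited table.

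**Figure D4:**
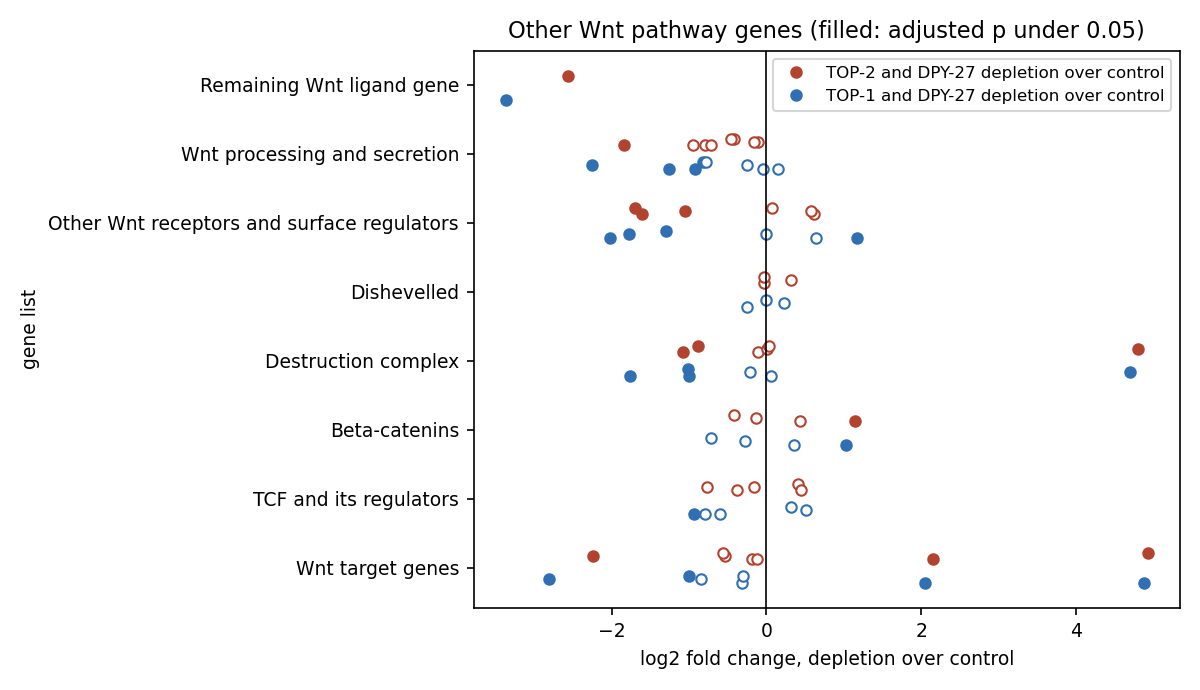
Log2 fold changes of depletion over control (x axis) for 40 further Wnt pathway genes by role (y axis), TOP-2/DPY-27 in red and TOP-1/DPY-27 in blue, with filled points at an adjusted p under 0.05. The Dishevelled genes lie near 0, lin-44 lies at -2.57 and -3.37, and axl-1 lies at 4.79 and 4.69.

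Markers of body regions and tissues moved in the same tables. These lists are not separate from the Wnt targets above. The genes egl-5 and mab-5 are also posterior body markers, and ceh-22 is also a pharynx marker. Over all genes tested, 14.1% were called higher and 7.47% lower in the TOP-2 table, and 17.1% and 12.8% in the TOP-1 table. Of 7 posterior body genes 5 fell in each table, with medians of -2.23 and -2.69, and their summed implied level was 2319 and 2006 normalized counts after the depletions, against 6278 and 6088 in the control. Of its 4 best expressed members, the Hox genes php-3, nob-1 and egl-5 were at -2.25 ± 0.33, -2.33 ± 0.35 and -2.23 ± 0.39 in the authors' deposited table for TOP-2/DPY-27, and tlp-1, which did not pass, was at -0.29 ± 0.34. In the opposite direction, 8 of 10 tested genes of anterior neurons rose after the TOP-2 depletion, and 7 rose and 1 fell after the TOP-1 depletion, with summed levels of 2756 and 2966 normalized counts, against 433 and 420 in the control. The neuropeptide genes flp-1 and flp-17, among its best expressed members, were at 5.14 ± 0.36 and 5.68 ± 0.51 in the authors' deposited table for TOP-2/DPY-27 and at 5.46 ± 0.36 and 6.04 ± 0.48 in that for TOP-1/DPY-27. The member that fell was ttx-1, at -1.63 ± 0.42 in the authors' deposited table for TOP-1/DPY-27. che-1 and str-2 of this list each had a row in 1 table, with no adjusted p. Counted as higher after the TOP-2 depletion were gcy-5 and gcy-7, at mean normalized counts of 8.84 and 6.82. After the TOP-1 depletion gcy-7 was also counted as higher, at a mean of 8.66. These values lie below the mean of 10 required for the list medians.

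Genes of the pharynx rose in 9 of 10 cases in both tables, with medians of 5.52 and 4.99 and summed levels of 53754 and 34442 normalized counts, against 1346 and 1307. Germline genes rose in 10 of 10 and 9 of 10 tested cases, with summed levels of 5243 and 3387, against 326 and 315. Body wall muscle genes had medians of 0.23 and 0.66, with 2 of 9 higher in each table. Intestine genes had medians of 0.18 and 0.41, with 1 of 9 higher in the TOP-2 table and 2 higher and 1 lower in the TOP-1 table. Hypodermis genes had medians of -0.52 and -1.09 (2 and 5 of 8 lower), and pan-neuronal genes had medians of -0.54 and -0.65 (1 and 4 of 10 lower). Beside these counts, 14.1% and 17.1% of all genes tested were called higher in the TOP-2 and TOP-1 tables, and 7.47% and 12.8% lower. With so few genes per list, counts such as 2 of 9 higher or 1 of 10 lower lie near those shares.

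**Figure D5:**
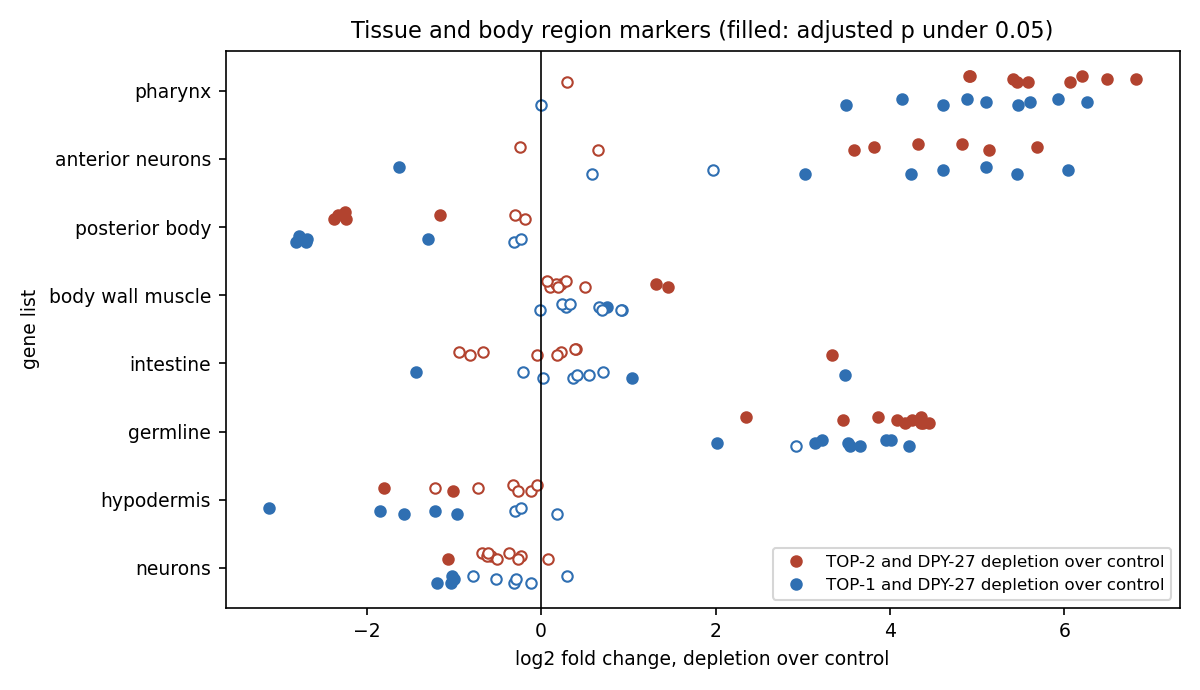
Log2 fold changes of depletion over control (x axis) for marker genes with a mean of at least 10, by tissue or body region (y axis), TOP-2/DPY-27 in red and TOP-1/DPY-27 in blue, with filled points at an adjusted p under 0.05. Posterior body genes lie at medians of -2.23 and -2.69, pharynx genes at 5.52 and 4.99.

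The genes closest to sfrp-1 in both fold changes, out of 6721 named genes whose mean reached 50 in both tables, were daz-1, plpr-1 and puf-8. They lay 0.06, 0.12 and 0.12 away from it on the log2 scale, as the straight-line distance over the 2 comparisons. Their log2 fold changes after TOP-2/DPY-27 depletion were 4.03 ± 0.46, 4.04 ± 0.59 and 3.91 ± 0.44 in the authors' deposited table. After TOP-1/DPY-27 depletion they were 3.26 ± 0.46, 3.21 ± 0.46 and 3.35 ± 0.50. The SEs of sfrp-1, 0.56 and 0.64, exceed these distances, so which genes lie closest is not resolved. With a mean of 45.9 in the TOP-1 table, sfrp-1 itself lay below the 50 asked of the other genes. A likeness over 2 comparisons with a common control is a description only.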

How the data were processed

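Poly(A)-selected, stranded libraries came from larvae grown for 24 h at 22 °C and then kept for 2 h on 1 mM auxin, per the labels' protocols. The tools in the submitters' processing notes are DESeq2 1.30.0, whose column names the tables carry, HTSeq 0.13.5, HISAT2 2.2.1, Cufflinks 2.2.1 and CASAVA 1.8. Build and counting rule are not given in the sources used here. Coordinates and sequences are therefore left out.

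The authors deposited a mean normalized count per gene, taken over the libraries of a comparison and used here as a signal. The log2 fold changes, depletion over control, and their SEs were deposited by the authors, as were the Wald score, the p-value and its adjusted form, per the file headers. The tables hold 16927 genes (TOP-2/DPY-27) and 17187 (TOP-1/DPY-27), and an adjusted p given as missing stayed missing. Whether replicates came from separate cultures is not stated, so p-values measure the spread between these libraries, which may be technical. Among genes whose mean reached 10 the median SE was 0.413 and 0.397, which sets the precision.

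The control level was computed as 2 times the mean divided by 1 plus the fold, and averaged over both tables for the 9 genes. Differences between the depletions were tested with a two-sided Wald z (Python 3.11.15, scipy 1.17.1). The procedure was run on simulated counts with the spread of each gene known to it. That run cannot show how it behaves when the spread is estimated from 2 libraries. Exonic lengths and symbols came from Ensembl release 115 (98.1% of names matched). Named were all 9 genes, each further pathway gene called in either table, up to 4 of the best expressed markers of a list, and the 3 genes nearest to sfrp-1, the member with the smallest adjusted p in the TOP-2/DPY-27 table. The members and lists were chosen with earlier results of these data known.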

Additional observations from a re-analysis of the deposited data

How the results depend on the processing

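Of 117 values of single genes under the alternatives, 108 kept their direction and their side of the threshold. Direction could change only where the autosomal median was subtracted, because the other alternatives kept the fold change. Under that subtraction 23 values stayed the same, 2 gained a call, 1 lost its call and 1 reversed. A stricter threshold could not move a gene that had not passed. After subtraction of the autosomal median, 5 of the 9 genes were higher after TOP-2/DPY-27 depletion in place of 3, and cfz-2 turned to 0.12 (adjusted p 0.888). That subtraction left 2369 higher and 882 lower genes in all in that table, 72.9% higher in place of 65.3%. At an adjusted p under 0.01 cwn-1 and mom-2 lost their calls there, and 678 genes in all were lower in place of 1118. At the same threshold the further pathway genes had 4 higher and 5 lower of 40 for TOP-2/DPY-27, beside 1547 and 678 of 14958 genes tested. For TOP-1/DPY-27 they had 3 higher and 7 lower of 40, beside 1843 and 1276 of 14854 genes tested. For the difference between the depletions, taking equal parts of each squared SE as due to the control and to the depleted larvae gave 1 of the 9 genes, egl-20 (adjusted p 0.00864), with 232 higher and 106 lower genes in all, against 9 and 6 with independent SEs. The SE without the control's share gave 1 gene, egl-20, with 246 and 135 in all. With independent SEs and an adjusted p under 0.01, 0 genes were higher and 3 lower in all. With 3 control libraries in place of 2, the control levels of both tables agreed less well, with an SD of 0.0452 on the log2 scale. No paired analysis was possible because the deposited tables hold no values per library, and for the same reason no replicate could be left out. The cause of these shifts was not tested. Depth limits mom-2 and sfrp-1 most, with 24.1 and 8.46 normalized counts in the control.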
